A study of Saccharomyces cerevisiae with 19 samples.

Results

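Alcohol dehydrogenases interconvert acetaldehyde and ethanol with the help of NAD or NADP, and the genes ADH1 to ADH6 of Saccharomyces cerevisiae were taken by name from both deposited count tables, 6 of the 6409 features that name a gene in both. All 6 passed the filter on low counts, which left 6147 features. Transcripts were measured by RNA sequencing at 36 h in 5 strains with 3 biological replicates each, 15 libraries in all. Pcf11, which the strains alter, is a subunit of the factor that cleaves messenger RNA 3′ ends and helps RNA polymerase II to stop. In ΔPcf11 the gene was deleted per the labels, and in Pcf11-AARR 4 conserved residues were replaced (Y575A, E577R, E578R and W582A). Pcf11-OE1 and Pcf11-OE2 overexpress it, with either the strong TEF1 or the weak CDC60 promoter, and the labels do not say which promoter belongs to which strain. WT is the unaltered strain. Every library is labelled with the names S288C and CEN.PK2-1C together, and all strains grew in liquid medium at 30 °C. CLIP sequencing, in which RNA bound to a protein is crosslinked to it, pulled down and read, added 2 immunoprecipitations (IP) of Flag-tagged Pcf11 and 2 inputs, also at 36 h.

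Fermenting yeast turns pyruvate into acetaldehyde and then into ethanol, a step that regenerates NAD for glycolysis. Once glucose is used up, ethanol is oxidised back to acetaldehyde and enters respiration by way of acetate and acetyl-CoA. ADH1 encodes the main cytosolic enzyme of ethanol formation, and ADH2 the glucose-repressed cytosolic enzyme that favours ethanol oxidation. ADH2 is switched on by the activators Adr1 and Cat8 when the kinase Snf1 is active. ADH3 encodes the mitochondrial enzyme, ADH4 an enzyme of a different protein family that is induced when zinc is scarce, ADH5 a minor relative of ADH1, and ADH6 an NADPH-dependent enzyme that reduces many aldehydes.

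Total counts ran from 25930079 to 45796931 per RNA-seq library, and 49.87% to 95.27% of the reads mapped in the 9 libraries for which the authors give it. By strain this was 56.43% to 61.85% in ΔPcf11, 49.87% to 91.6% in Pcf11-AARR and 83.62% to 95.27% in WT. Mapping thus differed between ΔPcf11 and WT, and its bearing on the levels was not tested. PCF11 averaged 13.0 ± 0.893 CPM (read counts scaled to a common library size with TMM, SD, n = 3) in the libraries labelled ΔPcf11 and 15.2 ± 2.13 CPM in WT, with an edgeR adjusted p of 0.129, so reads on the gene are not missing from those libraries and their label is used here as a name. PCF11 was 38.8-fold higher in Pcf11-OE1 and 5.01-fold higher in Pcf11-OE2 than in WT. In Pcf11-AARR it was 1.40-fold higher than in WT, at 21.2 CPM (edgeR adjusted p = 0.00345). Genes that can differ between laboratory backgrounds separated WT from the other strains. Of 8 such genes, the 4 ASP3 copies for asparaginase and 4 MAL genes for maltose use, 8, 7, 8 and 8 lay above the WT range in ΔPcf11, Pcf11-AARR and the overexpressors Pcf11-OE1 and Pcf11-OE2, with summed levels of 1523 to 5833 CPM per library, against 96.1 to 129.99 CPM in WT. ASP3-2 had 14683 to 16222 reads over the 3 libraries of each altered strain, against 2 reads over those of WT, while ASP3-1, a copy close in sequence, had 1711 to 5994 reads, against 991 in WT. Of 5 genes of MATa cells 4 lay above the WT range in each altered strain, all but MFA1, with sums of 249.97 to 598 CPM, against 213 to 240 CPM in WT. Of 4 genes of MATalpha cells 2 lay above it in each, with sums of 109 to 127 CPM, against 99.4 to 112 CPM in WT. Some of these genes went the other way. MFA1 lay below the WT range in Pcf11-AARR, at 111 to 165 CPM, against 181 to 209 CPM in WT. SAG1, of the MATalpha genes, lay below it in ΔPcf11 (30.4 to 35.4 CPM) and Pcf11-AARR (26.4 to 32.1 CPM), against 38.5 to 41.0 CPM in WT. In every comparison with WT below, a change of strain background and the change of Pcf11 therefore cannot be told apart, and the same 3 WT libraries serve all 4 of them. In bulk cultures, fewer cells that express a gene and less RNA per cell cannot be told apart either.

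The counted features start at the start codon and run 407 to 479 bases past the stop codon, on assembly R64. ADH1 (YOL086C) lies at chrXV:159141-160594 on the minus strand, ADH2 (YMR303C) at chrXIII:872812-874337 on the minus strand and ADH3 (YMR083W) at chrXIII:434788-436378 on the plus strand. ADH4 (YGL256W) lies at chrVII:15159-16714, ADH5 (YBR145W) at chrII:533762-535256, both on the plus strand, and ADH6 (YMR318C) at chrXIII:910631-912143 on the minus strand. The coding sequences of ADH1 and ADH2 are 88.8% identical, 930 of 1047 bases. ADH5 and ADH3 are 73.2% and 69.9% identical to ADH1, and ADH4 and ADH6 are 46.2% to 50.0% identical to the other members. The longest identical run of ADH1 and ADH2 is 189 bases, from base 193 to base 381 of the coding sequence, and is shown because reads inside it cannot be given to either gene. No other pair shares a run above 23 bases. Of the windows of 100 bases, 90 of the 1355 in the ADH1 feature (6.64%) and 90 of the 1427 in the ADH2 feature (6.31%) are shared. The run, on the coding strand, lies at chrXV:160214-160402 in ADH1 and at chrXIII:873957-874145 in ADH2:
ADH1 and ADH2 shared run: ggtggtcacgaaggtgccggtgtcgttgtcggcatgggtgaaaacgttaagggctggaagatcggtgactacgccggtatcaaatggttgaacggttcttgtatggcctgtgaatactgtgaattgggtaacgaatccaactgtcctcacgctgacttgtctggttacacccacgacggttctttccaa
Where the run ends the genes part again, as the 90 bases from coding base 352 to 441 show, with the 3 differing bases in capitals:
ADH1 coding bases 352 to 441: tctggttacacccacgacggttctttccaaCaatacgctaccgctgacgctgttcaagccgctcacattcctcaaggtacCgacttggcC
ADH2 coding bases 352 to 441: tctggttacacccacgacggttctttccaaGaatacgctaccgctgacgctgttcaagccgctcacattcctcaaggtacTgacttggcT
How the authors' counting treated reads that match both genes is not given in the sources used here, so the level of the scarcer gene is the less certain. With even coverage, the shared windows of ADH1 would hold 27.6 to 41.1 CPM in the altered strains, 18.2% to 41.1% of their ADH2 level, and those of ADH2 would hold 185 CPM in WT, 49.7% of the ADH1 level there.

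The ADH genes changed places between WT and the 4 other strains. ADH2 was the most abundant member in WT, and ADH1 was the most abundant in ΔPcf11, Pcf11-AARR and the overexpressors Pcf11-OE1 and Pcf11-OE2. Per kilobase of counted feature, ADH2 made up 16.6 ± 10.3%, 18.8 ± 3.98%, 10.2 ± 3.80% and 10.6 ± 5.81% of the summed level of the 6 genes in ΔPcf11, Pcf11-AARR and the overexpressors Pcf11-OE1 and Pcf11-OE2, against 82.4 ± 0.738% in WT (SD, n = 3 each). ADH1 made up 67.4 ± 10.9%, 54.7 ± 3.01%, 66.4 ± 4.71% and 65.3 ± 3.16% in the same order of strains, against 11.0 ± 0.649% in WT. The mean share of ADH3 was 5.84% to 11.8% in the 4 altered strains, against 3.23% in WT, and that of ADH5 6.97% to 10.3%, against 2.43% in WT. ADH6 and ADH4 stayed the least abundant pair in every strain, ADH6 at mean shares of 2.25% to 3.72% in the altered strains and 0.605% in WT, and ADH4 at 0.599% to 0.922% in the altered strains and 0.380% in WT. Shares of a sum rise where ADH2 falls, and the mean CPM of ADH3 and of ADH4 was lower in each altered strain than in WT. Among all 6147 features tested, ranked from the highest by mean CPM per kilobase, ADH2 was 1400th, 1322nd, 2064th and 1900th in ΔPcf11, Pcf11-AARR and the overexpressors Pcf11-OE1 and Pcf11-OE2, and 58th in WT. ADH1 was 356th, 461st, 286th and 298th, and 563rd in WT.

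**Figure D1:**
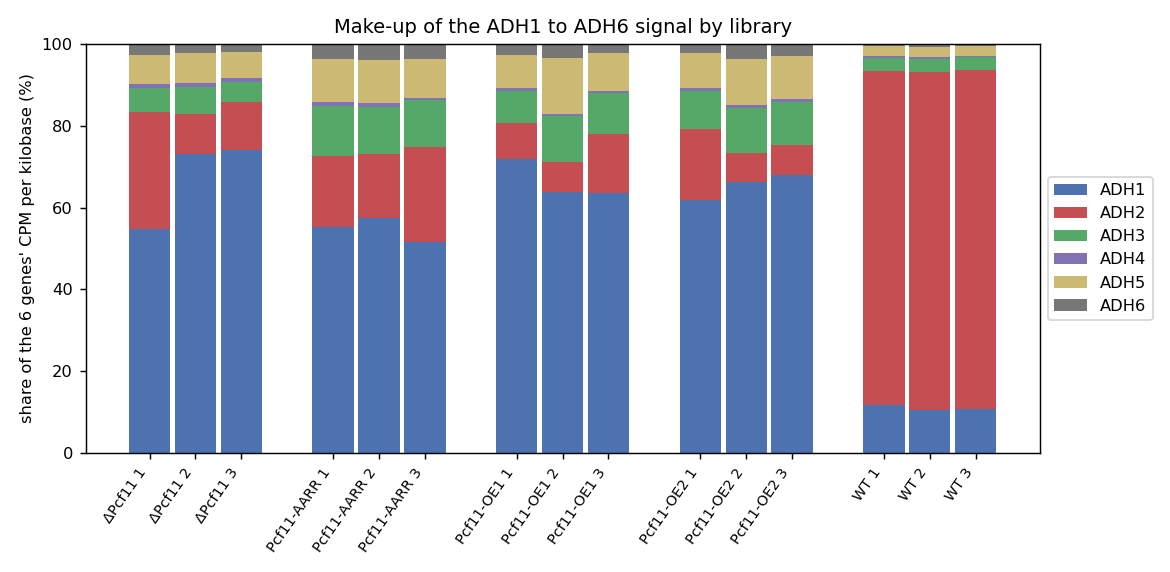
Share of each ADH gene (%, vertical axis) in the summed CPM per kilobase of ADH1 to ADH6, 1 bar per RNA-seq library, from ΔPcf11 on the left to WT on the right. ADH2 fills 81.5% to 83.0% of each WT bar and at most 28.5% of any other bar.

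The sum of the 6 genes was 926 ± 80.4, 780 ± 59.0, 856 ± 87.8 and 898 ± 54.4 CPM in ΔPcf11, Pcf11-AARR and the overexpressors Pcf11-OE1 and Pcf11-OE2, against 3546 ± 266 CPM in WT (SD, n = 3 each), and no library of an altered strain reached the WT range. An exact two-sided permutation test of 3 against 3 libraries gave p = 0.1 for each strain, the smallest it can give. Without ADH2, the sum was 773 ± 158, 629 ± 19.7, 766 ± 79.9 and 798 ± 36.1 CPM, against 612 ± 32.7 CPM in WT, with exact permutation p of 0.3, 0.7, 0.1 and 0.1.

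**Figure D2:**
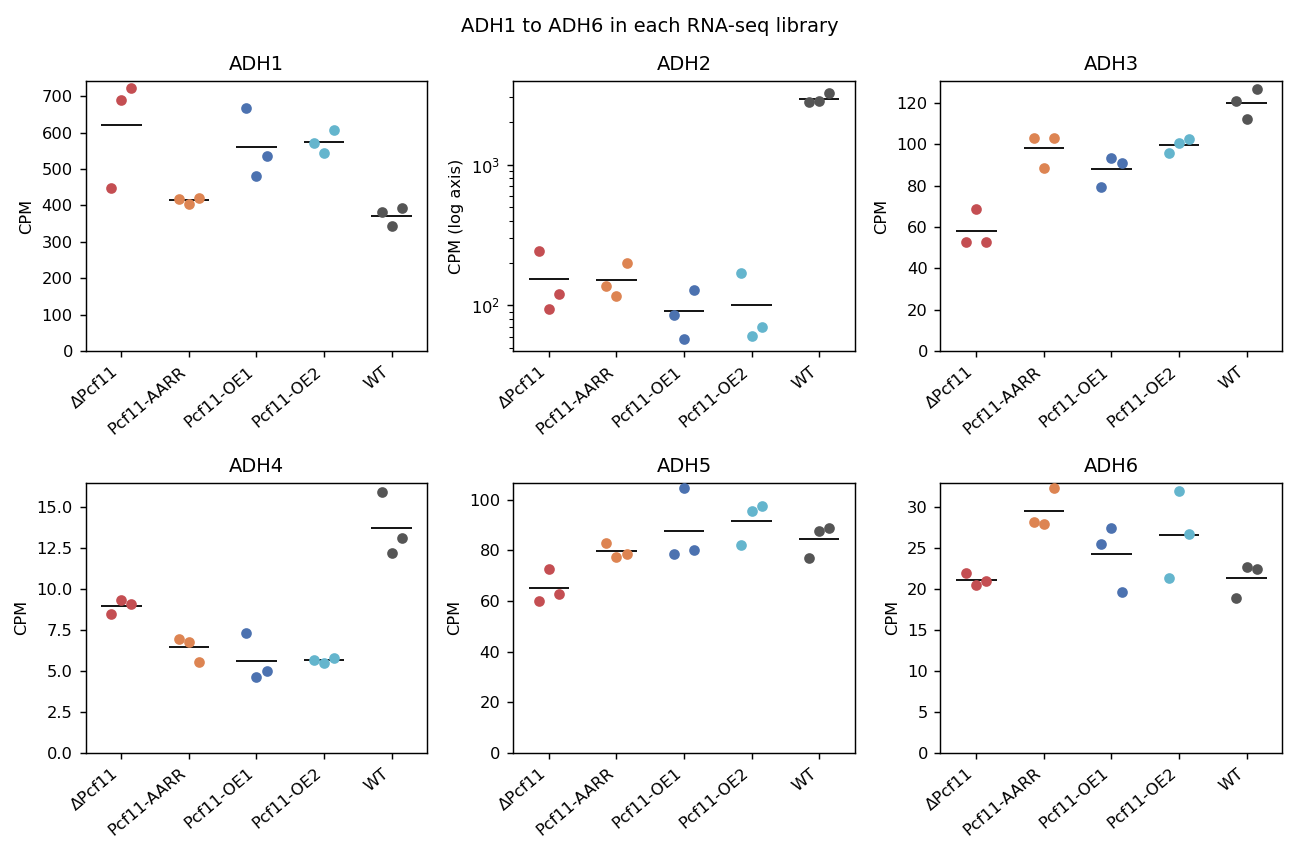
CPM (vertical axes, logarithmic for ADH2) of each ADH gene in each of the 15 RNA-seq libraries, with strains from ΔPcf11 on the left to WT on the right; points are libraries and lines are means. The WT points of ADH2, 2780 to 3210 CPM, lie far above those of the other strains, 57.7 to 244 CPM.

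Counted by test, edgeR's quasi-likelihood test with Benjamini-Hochberg adjustment over all 6147 features called 1 of the 6 genes higher and 4 lower in ΔPcf11 than in WT, where 34.8% of all features were called higher and 29.1% lower. In Pcf11-AARR against WT, 1 was called higher and 3 lower, beside 33.8% and 30.4% of all features. Pcf11-OE1 against WT had 1 higher and 3 lower, beside 36% and 32.1%. Pcf11-OE2 against WT had 1 higher and 2 lower, beside 34% and 31.1%. With calls this frequent among all features, these counts alone do not set the family apart, and the sizes and the individual genes carry the description.

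**Figure D3:**
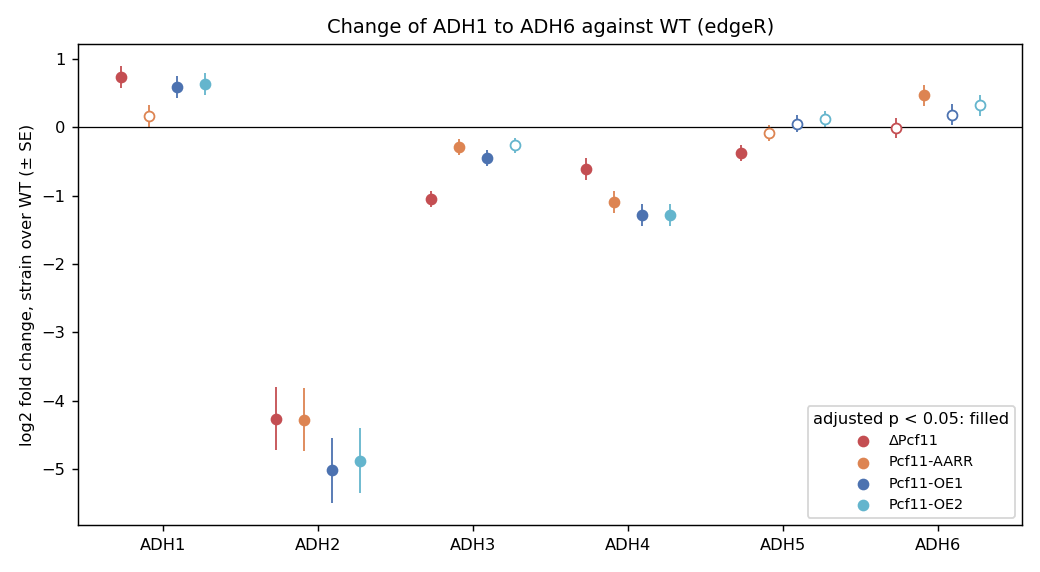
Log2 fold change of each ADH gene against WT (vertical axis, ± SE from edgeR), for ΔPcf11, Pcf11-AARR and the overexpressors Pcf11-OE1 and Pcf11-OE2 from left to right within each gene; filled points have an adjusted p under 0.05. ADH2 lies at -4.26 to -5.02 and every other point between -1.28 and 0.73; the ADH3 point of Pcf11-AARR, -0.29, becomes 0.067 when libraries are scaled by their totals alone.

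ADH1, the fermentative enzyme, had 448, 689 and 722 CPM in the ΔPcf11 libraries, against 381, 344 and 392 CPM in WT. Pcf11-OE1 had 667, 479 and 535 CPM and Pcf11-OE2 572, 544 and 607 CPM. Pcf11-AARR had 419, 405 and 421 CPM. All 12 libraries of the altered strains lay above the highest WT library, those of Pcf11-AARR only slightly. ADH1 rose 1.66-fold in ΔPcf11 (log2 fold change 0.73 ± 0.16 SE, edgeR adjusted p = 0.00115), 1.51-fold in Pcf11-OE1 (0.59 ± 0.16, adjusted p = 0.0046) and 1.54-fold in Pcf11-OE2 (0.63 ± 0.16, adjusted p = 0.00341). In Pcf11-AARR the difference from WT was 0.16 ± 0.16 on the log2 scale, with an adjusted p of 0.406. Scaled by library totals alone, it was 0.51 and passed the test (0.00666). Between the altered strains, ADH1 was lower in Pcf11-AARR than in ΔPcf11 by a log2 fold change of -0.58 ± 0.16 (adjusted p = 0.0112), a call that was lost without ΔPcf11 replicate 3 (adjusted p = 0.0618) and with scaling by library totals (0.0744).

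ADH1 shares ground with a gene on the other strand. MHF1, whose product takes part in DNA repair and at centromeres, lies wholly inside the ADH1 feature, past the ADH1 stop codon, where its 273 bases cover 18.8% of the feature. Reads counted on MHF1 came to 41.6 ± 2.85%, 52.1 ± 14.0%, 21.1 ± 4.64% and 22.0 ± 1.08% of the reads counted on ADH1 in ΔPcf11, Pcf11-AARR and the overexpressors Pcf11-OE1 and Pcf11-OE2, against 42.5 ± 2.56% in WT (SD, n = 3 each). The library kit keeps strand, but the strand setting of the counting is not given in the sources used here, so reads of the pair cannot be told apart. With the MHF1 reads taken off, an alternative chosen after the data were seen, ADH1 differed from WT by log2 fold changes of 0.76 in ΔPcf11 (edgeR adjusted p = 0.00973), 1.05 in Pcf11-OE1 (0.00102) and 1.06 in Pcf11-OE2 (0.00105). In Pcf11-AARR the sign then turned, to -0.11, with an adjusted p of 0.693. The calls of ADH1 against WT were thus the same with and without these reads, and the values of both overexpression strains were larger without them.

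**Figure D4:**
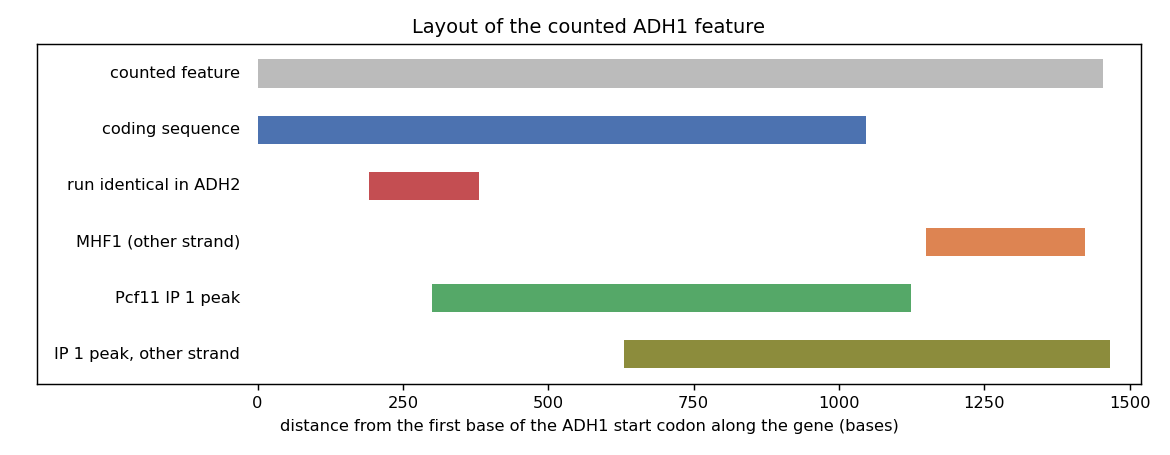
Layout of the counted ADH1 feature, with the distance from the first base of the start codon in bases on the horizontal axis; bars show the feature, its coding sequence, the run identical in ADH2, MHF1 on the other strand and the Pcf11 peaks of the first IP library on each strand. The shared run spans bases 193 to 381, the coding sequence ends at base 1047 and the feature at base 1454.

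ADH2, the ethanol-oxidising enzyme, had 244, 94.9 and 120.0 CPM in the ΔPcf11 libraries, against 2780, 2814 and 3210 CPM in WT. Pcf11-AARR had 138, 116 and 200 CPM. Pcf11-OE1 had 85.6, 57.7 and 128 CPM, and Pcf11-OE2 168, 60.7 and 70.6 CPM. The groups did not overlap with WT, and the spread within each altered strain was wide, with a coefficient of variation of 28.6% to 59.6%, against 8.14% in WT. ADH2 fell 19.2-fold in ΔPcf11 (log2 fold change -4.26 ± 0.46 SE, edgeR adjusted p = 2.44e-06) and 19.4-fold in Pcf11-AARR (-4.28 ± 0.46, adjusted p = 2.05e-06). It fell 32.4-fold in Pcf11-OE1 (-5.02 ± 0.48, adjusted p = 4.82e-07) and 29.4-fold in Pcf11-OE2 (-4.88 ± 0.47, adjusted p = 7.22e-07). Without Pcf11-OE2 replicate 1 the value in Pcf11-OE2 was -5.48. Ordered from the lowest log2 fold change of the 6147 features, ADH2 was 21st, 26th, 21st and 20th in ΔPcf11, Pcf11-AARR and the overexpressors Pcf11-OE1 and Pcf11-OE2.

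Among the altered strains ADH2 was not called different in any of 6 pairs, with adjusted p from 0.12 to 0.979. The largest difference was -0.76 ± 0.41 on the log2 scale for Pcf11-OE1 against ΔPcf11, and the smallest -0.02 ± 0.40 for Pcf11-AARR against ΔPcf11, so differences well above the standard error remain possible. Single libraries weighed here. Without Pcf11-OE2 replicate 1, ADH2 was lower in Pcf11-OE2 than in ΔPcf11 by a log2 fold change of -1.22 (edgeR adjusted p = 0.0146) and than in Pcf11-AARR by -1.20 (0.0204). Without Pcf11-OE1 replicate 3, it was lower in Pcf11-OE1 than in ΔPcf11 by -1.09 (0.049).

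The ratio of ADH2 to ADH1 within a library does not depend on how libraries are scaled. Per kilobase it was 0.519, 0.131 and 0.158 in ΔPcf11, against 6.95, 7.80 and 7.80 in WT. It was 0.314, 0.273 and 0.452 in Pcf11-AARR, 0.122, 0.115 and 0.228 in Pcf11-OE1, and 0.281, 0.106 and 0.111 in Pcf11-OE2. Every altered library had more ADH1 than ADH2, and every WT library the reverse. On the log2 scale the mean ratio differed from that of WT by -5.09, -4.47, -5.67 and -5.65 in ΔPcf11, Pcf11-AARR and the overexpressors Pcf11-OE1 and Pcf11-OE2, with an exact two-sided permutation p of 0.1 each, the smallest that 3 against 3 libraries can give. With the MHF1 reads taken off ADH1 these differences were -5.11, -4.17, -6.13 and -6.09.

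ADH3, whose mitochondrial enzyme takes part in moving reducing equivalents across the inner membrane, had 52.8, 68.7 and 52.6 CPM in ΔPcf11, against 121, 112 and 127 CPM in WT. The 2 groups were far apart, and ADH3 fell 2.07-fold in ΔPcf11 (log2 fold change -1.05 ± 0.12 SE, edgeR adjusted p = 2.79e-06). Pcf11-AARR had 103, 88.7 and 103 CPM, Pcf11-OE1 79.1, 93.3 and 91.1 CPM, and Pcf11-OE2 95.9, 100.4 and 103 CPM, all below the lowest WT library. ADH3 fell in Pcf11-OE1 by 0.45 ± 0.11 on the log2 scale (adjusted p = 0.00282), a call that was lost at -0.15 with scaling by library totals (0.264). In Pcf11-AARR it was called lower at -0.29 ± 0.11 (adjusted p = 0.0368), but the value was 0.067, in the other direction (adjusted p = 0.628) with scaling by library totals, and the call was lost without Pcf11-AARR replicate 2 (0.146), WT replicate 1 (0.0759) or WT replicate 3 (0.113). In Pcf11-OE2 the value was -0.27 ± 0.11, with an adjusted p of 0.0511, which became 0.0257 without Pcf11-OE2 replicate 3, 0.0478 without WT replicate 2, 0.0378 with RLE scaling and 0.0286 with DESeq2, but 0.982 at -0.0033 with library totals. The order of the levels ran from WT through Pcf11-OE2, Pcf11-AARR and Pcf11-OE1 to ΔPcf11, and of these neighbours Pcf11-OE1 and ΔPcf11 passed the test (edgeR adjusted p = 0.000423). WT and Pcf11-OE2 did not overlap and narrowly missed the threshold, and the remaining neighbours had adjusted p of 0.262 and 0.881.

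ADH4, the zinc-responsive enzyme, was the least abundant member. It had 8.48, 9.31 and 9.07 CPM in ΔPcf11, against 15.9, 12.2 and 13.1 CPM in WT. Pcf11-AARR had 6.97, 6.79 and 5.55 CPM, Pcf11-OE1 7.28, 4.65 and 4.97 CPM, and Pcf11-OE2 5.65, 5.48 and 5.78 CPM. No altered library reached the WT range. ADH4 fell 1.53-fold in ΔPcf11 (log2 fold change -0.62 ± 0.16 SE, edgeR adjusted p = 0.00396), 2.13-fold in Pcf11-AARR (-1.09 ± 0.16, adjusted p = 4.19e-05), 2.44-fold in Pcf11-OE1 (-1.28 ± 0.16, adjusted p = 7.78e-06) and 2.43-fold in Pcf11-OE2 (-1.28 ± 0.16, adjusted p = 9.52e-06). Of the neighbours in its order of levels, WT and ΔPcf11 differed, and ΔPcf11 and Pcf11-AARR differed with an adjusted p of 0.0311, while the libraries of Pcf11-AARR, Pcf11-OE2 and Pcf11-OE1 overlapped (0.361 and 0.998).

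ADH5, the minor relative of ADH1, had 60.0, 72.5 and 62.7 CPM in ΔPcf11, against 77.0, 87.7 and 88.9 CPM in WT. It fell in ΔPcf11 by 0.38 ± 0.12 on the log2 scale (edgeR adjusted p = 0.0134), and the call was lost without ΔPcf11 replicate 1 (0.0519) and, at -0.25, with scaling by library totals (0.121). Its means of 79.6, 87.7 and 91.7 CPM in Pcf11-AARR, Pcf11-OE1 and Pcf11-OE2 lay close to the 84.5 CPM of WT, with log2 fold changes of -0.09, 0.05 and 0.12, each ± 0.12 SE, and adjusted p from 0.407 to 0.714. Scaled by library totals, they were 0.27, 0.35 and 0.38, and ADH5 was called higher in Pcf11-OE1 (0.0335) and Pcf11-OE2 (0.0231).

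ADH6, the NADPH-dependent enzyme, had 28.2, 27.9 and 32.3 CPM in Pcf11-AARR, against 18.9, 22.7 and 22.5 CPM in WT. It rose 1.38-fold there (log2 fold change 0.46 ± 0.15 SE, edgeR adjusted p = 0.0143), a call that was lost without Pcf11-AARR replicate 3 (0.0545) or WT replicate 1 (0.0643). Its means were 21.1, 24.2 and 26.6 CPM in ΔPcf11, Pcf11-OE1 and Pcf11-OE2 and 21.3 CPM in WT, with adjusted p of 0.934, 0.296 and 0.0754. Without Pcf11-OE2 replicate 1, ADH6 was called higher in Pcf11-OE2 as well, at 0.46 (0.0129). With scaling by library totals it was called higher in both overexpressors, at 0.48 in Pcf11-OE1 (0.0255) and 0.59 in Pcf11-OE2 (0.00839). The feature overlaps YMR317W on the other strand over 647 bases, 42.8% of its length. YMR317W averaged 75.5, 99.0, 125 and 121 CPM in ΔPcf11, Pcf11-AARR and the overexpressors Pcf11-OE1 and Pcf11-OE2, against 91.7 CPM in WT, and the reads of the pair cannot be told apart.

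The tests between altered strains leave WT out. In Pcf11-AARR against ΔPcf11, 4 of the 6 genes were called, ADH3 and ADH6 higher and ADH1 and ADH4 lower, beside 40.6% of all features in either direction. ADH3 was higher by a log2 fold change of 0.76 ± 0.12 (edgeR adjusted p = 0.000201), while the calls of ADH1, ADH4 and ADH6 were each lost without ΔPcf11 replicate 3 (0.0618, 0.0772 and 0.0611). ADH4 also lost its call without ΔPcf11 replicate 2 (0.0803), Pcf11-AARR replicate 2 (0.0509) or Pcf11-AARR replicate 3 (0.12), and ADH6 without ΔPcf11 replicate 2 (0.0602) or Pcf11-AARR replicate 3 (0.0774). Scaling by library totals also ended the call of ADH4 (0.198). ADH5, at an adjusted p of 0.0667, was called higher in Pcf11-AARR with library totals (0.0068), 1 fit per count table (0.0191), only the 2 strains in the fit (0.0297), a replicate block (0.0443) or without ΔPcf11 replicate 2 (0.0434). Pcf11-OE1 against ΔPcf11 had 3 of 6 called, beside 60.1% of all features, and Pcf11-OE2 against ΔPcf11 also 3 of 6, beside 57.2%. In both, ADH3 and ADH5 were higher and ADH4 lower: ADH3 by 0.60 and 0.78, ADH5 by 0.43 and 0.49 and ADH4 by -0.67 and -0.67 on the log2 scale in Pcf11-OE1 and Pcf11-OE2. ADH1 was called lower in Pcf11-OE1 than in ΔPcf11 without ΔPcf11 replicate 1 (-0.33, 0.0423), and ADH6 higher in Pcf11-OE2 than in ΔPcf11 without Pcf11-OE2 replicate 1 (0.47, 0.0128) or with library totals (0.48, 0.031). Against Pcf11-AARR, ADH1 alone was called higher in Pcf11-OE1 (0.43 ± 0.16, adjusted p = 0.0367) and in Pcf11-OE2 (0.47 ± 0.16, adjusted p = 0.0265), beside 50.2% and 48.6% of all features. The call in Pcf11-OE1 was lost without any 1 of Pcf11-AARR replicates 1, 2 and 3 and Pcf11-OE1 replicates 1 and 3 (0.0795, 0.0969, 0.0599, 0.174 and 0.0509), and that in Pcf11-OE2 without Pcf11-AARR replicate 1 or 2 or Pcf11-OE2 replicate 3 (0.0611, 0.0763 and 0.0959). Both calls were lost with library totals (0.0561 and 0.0533), and ADH4 was called lower in Pcf11-OE1 without its replicate 1 (-0.42, 0.036). With the MHF1 reads taken off, the values were 1.16 and 1.17. Pcf11-OE2 against Pcf11-OE1 had 0 of 6 called by edgeR and 0 by DESeq2, beside 1.55% of all features, and 0 of 6 had an unadjusted p under 0.05. PCF11 itself averaged 76.2 CPM in Pcf11-OE2 and 590 CPM in Pcf11-OE1, whereas the ADH genes of these strains differed by log2 fold changes of at most 0.18 with standard errors of 0.11 to 0.40.

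The remaining alcohol dehydrogenase genes also separated WT from the rest. ADH7, a close relative of ADH6 near the end of chromosome III, had 1, 3 and 2 reads in the ΔPcf11 libraries, against 420, 554 and 641 reads in WT. Pcf11-AARR had 7, 4 and 7 reads, Pcf11-OE1 4, 2 and 3, and Pcf11-OE2 5, 3 and 5. Both CLIP inputs list ADH7 with 0 reads. From these counts a gene that is absent and a gene that is silent cannot be told apart. SFA1, the enzyme of formaldehyde and long-chain alcohol oxidation, averaged 39.3 ± 5.98, 50.2 ± 4.60, 47.0 ± 6.30 and 44.2 ± 8.90 CPM in ΔPcf11, Pcf11-AARR and the overexpressors Pcf11-OE1 and Pcf11-OE2, against 163 ± 14.3 CPM in WT (SD, n = 3 each), and fell with log2 fold changes of -2.05, -1.70, -1.79 and -1.89, with edgeR adjusted p of at most 3.8e-07. With these genes included, the list of 11 other alcohol dehydrogenases and reductases had 2, 3, 2 and 3 members called higher and 4, 5, 6 and 5 called lower in the same order of strains, 18.2% to 27.3% and 36.4% to 54.5% of its members. Among all features 33.8% to 36% were called higher and 29.1% to 32.1% lower against WT, and the counts of each list are read beside these shares. Its members that rose include SOR1, a sorbitol dehydrogenase gene, by 3.31, 3.06, 3.15 and 3.31, and GRE2, a methylglyoxal reductase gene, by 1.83, 0.69, 1.44 and 1.44.

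Adr1 and Cat8, the activators of ADH2, have other targets in acetate uptake, the glyoxylate cycle, gluconeogenesis and peroxisomal fatty acid oxidation. Of 23 such targets other than ADH2, 19, 17, 21 and 21 fell and 1, 3, 0 and 1 rose in ΔPcf11, Pcf11-AARR and the overexpressors Pcf11-OE1 and Pcf11-OE2 against WT. These are 73.9% to 91.3% of the targets called lower, far above the shares of all features. Their median log2 fold changes were -1.37, -1.80, -1.77 and -1.78, beside 0.07, 0.05, 0.04 and 0.02 for all features. ADY2, the acetate transporter gene, averaged 219, 399, 233 and 274 CPM in these strains, against 20914 CPM in WT, and fell with log2 fold changes of -6.58, -5.71, -6.49 and -6.25, further than ADH2 in each strain. CIT3, a mitochondrial citrate synthase gene, fell 10.5-fold, 32.0-fold, 14.8-fold and 12.7-fold. ATO3, of the same transporter family as ADY2, fell with log2 fold changes of -3.20, -2.75, -4.41 and -4.21. ICL1, which encodes isocitrate lyase of the glyoxylate cycle, went the other way: it rose by 1.05 ± 0.26 on the log2 scale in ΔPcf11, 1.96 ± 0.27 in Pcf11-AARR and 0.75 ± 0.26 in Pcf11-OE2 (edgeR adjusted p = 0.00293, 2.06e-05 and 0.0206), and was at 0.58 in Pcf11-OE1 (0.0603).

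**Figure D5:**
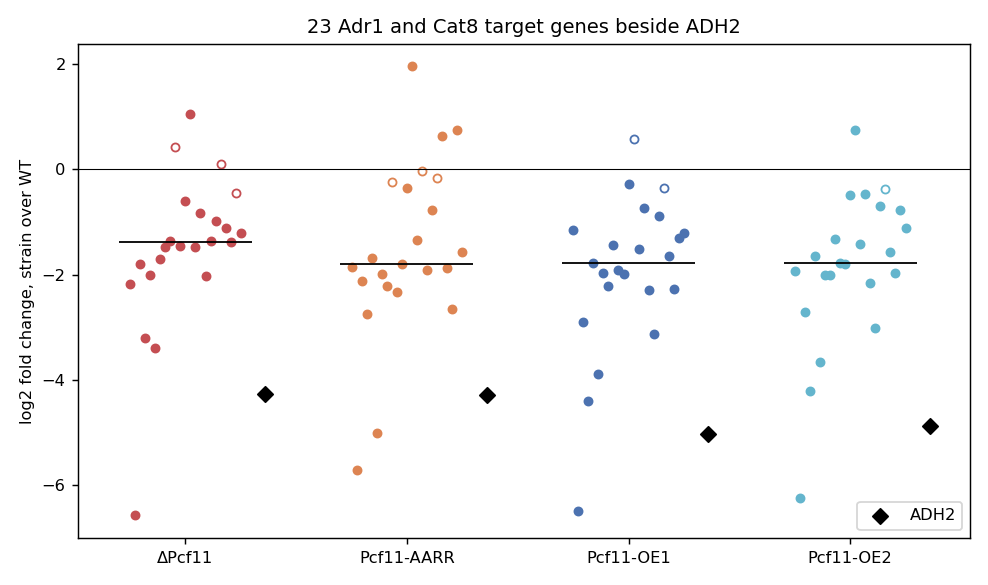
Log2 fold change against WT (vertical axis) of 23 Adr1 and Cat8 target genes in each altered strain (points; filled where the adjusted p is under 0.05, line at the median) and of ADH2 (diamonds). The medians lie at -1.37, -1.80, -1.77 and -1.78, and ADH2 at -4.26, -4.28, -5.02 and -4.88, in ΔPcf11, Pcf11-AARR and the overexpressors Pcf11-OE1 and Pcf11-OE2.

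The genes CAT8 and ADR1 were lower themselves. CAT8 averaged 81.3, 90.7, 87.9 and 90.4 CPM in ΔPcf11, Pcf11-AARR and the overexpressors Pcf11-OE1 and Pcf11-OE2, against 250 CPM in WT, and fell with log2 fold changes of -1.62, -1.46, -1.51 and -1.47. ADR1 averaged 108, 98.3, 123 and 118 CPM, against 201 CPM in WT, and fell with log2 fold changes of -0.90, -1.03, -0.70 and -0.77. SIP4, another activator gene among the regulators counted below, rose by 0.53 in ΔPcf11, 0.83 in Pcf11-OE1 and 0.87 in Pcf11-OE2 (edgeR adjusted p = 0.00127, 2.36e-05 and 1.74e-05). In Pcf11-AARR SIP4 was lower, at -0.30 (0.0352). MIG1, the glucose repressor gene, rose by 1.59, 1.81, 1.52 and 1.21, each ± 0.17 SE. TOS3, the gene of a kinase that activates Snf1, was at 0.44 in ΔPcf11 (edgeR adjusted p = 0.199) and rose by 2.21, 1.64 and 1.85 in the other 3 strains, in the same order. In all, 5, 9, 9 and 9 of the 19 genes of glucose repression and ADH2 regulation rose and 6, 7, 6 and 6 fell. These are 26.3% to 47.4% higher, beside 33.8% to 36% of all features, and 31.6% to 36.8% lower, beside 29.1% to 32.1%.

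The genes around the acetaldehyde step moved unequally too. Of 10 genes between pyruvate and acetyl-CoA, 7, 5, 5 and 6 rose and 2 fell in each of ΔPcf11, Pcf11-AARR and the overexpressors Pcf11-OE1 and Pcf11-OE2. These are 50% to 70% higher, beside 33.8% to 36% of all features, and 20% lower, beside 29.1% to 32.1%. With 10 genes a difference in these shares was not tested. The same pair fell in all 4 strains: ALD4, the mitochondrial acetaldehyde dehydrogenase gene, with log2 fold changes of -1.80, -2.12, -2.91 and -2.71, and ACS1, the acetyl-CoA synthetase gene of growth on poor carbon sources, with -2.18, -1.86, -1.16 and -1.93. Both are also among the 23 Adr1 and Cat8 targets. ALD5, another mitochondrial acetaldehyde dehydrogenase gene, rose by 1.80, 3.72, 3.02 and 2.62. PDC5, a pyruvate decarboxylase gene, rose by 1.46, 1.77, 1.97 and 1.87. PDC6, its minor relative, rose by 2.23 ± 0.33 in ΔPcf11 and 1.06 ± 0.32 in Pcf11-OE2, and was at 0.31 in Pcf11-AARR and 0.57 in Pcf11-OE1 (edgeR adjusted p = 0.408 and 0.12). Of 7 genes listed for NADH shuttles, 6, 5, 5 and 5 fell and 0, 0, 0 and 2 rose, so 71.4% to 85.7% were called lower. The share of all features called lower was 29.1% to 32.1%. GUT1, the glycerol kinase gene of this list, handles no NADH itself and is also among the 23 Adr1 and Cat8 targets. NDE2, an external NADH dehydrogenase gene, fell with log2 fold changes of -2.07, -2.02, -2.44 and -2.36.

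Zinc bears on this family because the activator Zap1 induces ADH4 and lowers ADH1 and ADH3 when zinc is scarce. Of 13 genes of the Zap1 regulon, 5, 5, 4 and 4 rose (30.8% to 38.5%) and 5, 6, 4 and 4 fell (30.8% to 46.2%) in ΔPcf11, Pcf11-AARR and the overexpressors Pcf11-OE1 and Pcf11-OE2. With 33.8% to 36% of all features called higher and 29.1% to 32.1% lower, these counts alone do not set the regulon apart. ZRT1, the high-affinity zinc transporter gene, rose by 2.49, 2.82, 2.61 and 2.33 on the log2 scale, where ADH4 fell. FET4, a low-affinity metal transporter gene, fell with log2 fold changes of -2.32, -2.56, -2.22 and -2.16, and IZH4, a gene of zinc homeostasis, with -1.52, -1.73, -2.15 and -2.11. Of 4 activators of glycolytic genes, too few to read against these shares, 0, 0, 1 and 0 rose and 2, 1, 1 and 1 fell. TYE7 fell in each strain, with log2 fold changes of -0.83, -1.07, -1.14 and -1.16.

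The ADH2 promoter is shown because Adr1 binds it at an inverted repeat. Both strands of the 600 bases before each start codon were searched for the letters TTGGAG or TTGGGG, and no other motif was searched. They occurred in 1929 of 6027 genes (32.0%), in 17 of the 23 Adr1 and Cat8 targets (73.9%) and in 2 of the 6 members, ADH2 and ADH4. ADH2 alone of the members has a copy on the other strand followed by one on its own strand starting at most 20 bases away. This order was found in 8 of 6027 genes (0.133%) and in 0 of the 23 targets, and the reverse order was not counted. The order counted is that of the ADH2 repeat itself, so its presence in ADH2 is no independent result. The copies lie at bases -291 to -286 and -277 to -272 from the start codon of ADH2, and the single copy of ADH4 at -413 to -408. The windows, with these letters in capitals, are at chrXIII:874589-874648 on the minus strand and chrVII:14719-14778 on the plus strand:
ADH2 bases -311 to -252: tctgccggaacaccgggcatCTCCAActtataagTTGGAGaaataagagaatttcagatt
ADH4 bases -440 to -381: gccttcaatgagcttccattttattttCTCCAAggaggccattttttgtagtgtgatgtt
A match of letters is a description of these windows and not a measured binding site.

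Deposited CLIP peaks of Pcf11 overlapped 4 of these 6 genes on their own strand, each in 1 of the 2 IP libraries. The first IP library had 1332 peaks, of which ADH1, ADH3 and ADH6 had a peak on their own strand, and the second had 1707, with ADH5 alone, so 0 of the 6 genes had a peak in both. Of all 6409 features that name a gene, 16.8% had a peak on their own strand in the first library, 20.8% in the second and 6.54% in both, so the members' counts are too small to set them apart. The ADH1 peak held 142 reads with a height of 44, the highest read depth as the authors give it without scaling, and was 118th of 1332 by reads. Its summit lay at base 978 of the 1047-base coding sequence. ADH3 had 213 reads and a height of 44, 79th of 1332, with the summit near the other end of the gene, at coding base 116 of 1128. These are the strongest peaks of the family, and the 51 bases around each summit are given with the summit in capitals, at chrXV:159592-159642 and chrXIII:434878-434928:
ADH1 coding bases 953 to 1003: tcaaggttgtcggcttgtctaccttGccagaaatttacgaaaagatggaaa
ADH3 coding bases 91 to 141: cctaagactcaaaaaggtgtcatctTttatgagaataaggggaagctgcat
The ADH6 peak held 11 reads, with 50.3% of its length inside the feature and its summit 415 bases past the stop codon, and the ADH5 peak 5 reads, 1486th of 1707. Median peaks held 16 and 22 reads in the first and second IP library. On the other strand of ADH1, a peak named for MHF1 held 25 reads. ADH2 and ADH4 had no peak in either library. With 2 IP libraries no test was made.

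The CLIP inputs show how much transcript was there to be bound. ADH1 was listed at 168.95 and 192.44 FPKM and ADH2 at 64.83 and 55.65 FPKM in the first and second input, so ADH1 exceeded ADH2 as in the altered strains and unlike in the WT RNA-seq libraries. ADH3 was the highest member, at 350.96 and 356.8 FPKM, 164th and 172nd of 6445 genes. In no RNA-seq strain did ADH3 lead. Its strain means there were 36.5 to 75.4 CPM per kilobase, against 256 to 426 for ADH1, so the inputs resembled no RNA-seq strain in this. ADH4, ADH5 and ADH6 ran from 15.51 to 47.86 FPKM. Antisense reads made up 18.1% and 21.5% of the reads on ADH2 and 26.0% and 16.5% of those on ADH6, which overlaps YMR317W, against 2.33% and 0.949% on ADH1. The inputs carry a WT genotype label while their description names overexpression of tagged Pcf11, so they were set against no RNA-seq strain by a test.

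Across the 15 libraries, the named genes whose log2 CPM followed each member most closely are given with Pearson's r as a description, since the points share strains and libraries. ADH2 was followed by FAA4, a fatty acyl-CoA synthetase gene (r = 0.990), HUL4 (0.987), NDE2 (0.986), ADY2 (0.985) and PEX9 (0.984). The closest for ADH3 was SBE22 (0.967), for ADH4 SAE3 (0.972), for ADH5 RSM24, a mitochondrial ribosomal protein gene (0.925), for ADH1 MGM101, a gene of mitochondrial DNA maintenance (0.898), and for ADH6 COQ2, a gene of ubiquinone synthesis (0.871). Among the 6 genes the highest of these r belonged to ADH2, the member that differed most from WT, and the lowest to ADH6. Over these libraries r also reflects the step between WT and the other strains. In the authors' deposited tables, whose log2 fold changes run WT over strain, ADH2 stood at 4.31, 4.34, 5.04 and 4.89 for ΔPcf11, Pcf11-AARR and the overexpressors Pcf11-OE1 and Pcf11-OE2, and ADH3 for Pcf11-OE2 at 0.28 with an FDR of 0.0254 where the fit used here gave an adjusted p of 0.0511.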

How the data were processed

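RNA-seq covered 5 strains with 3 biological replicates each per the labels, and CLIP 2 IP and 2 input libraries. Reads were trimmed with fastp 0.23.0, per the submitters' processing notes; for the aligner, counter and strand setting these sources give no name. As deposited, the tables hold raw counts per feature, with feature lengths and R64 chromosome accessions per the file headers. RPKM values were made by the authors from these counts and served only as a check (largest relative difference 5.1e-15). The log2 fold changes, p-values and FDR of the deposited tables rest on a test whose name the files leave out. CLIP peak reads and height (a signal of read depth, unscaled) and input FPKM are the authors' values as deposited, and the mapped percent is theirs too.

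The tables of 6863 and 6943 features were joined by name, WT counts being equal in both, with 2 names restored from dates and 454 rows that name no gene (0.872% to 1.38% of counts) left out. The 15 libraries entered 1 fit in edgeR 4.0.16 (R 4.3.3) with TMM scaling, filterByExpr and robust quasi-likelihood tests, strain as the only term, and Benjamini-Hochberg adjusted p under 0.05 over 6147 features as a call. The common biological coefficient of variation was 0.145, and pairs of replicate libraries gave a chi-square of 37.9 to 381 per degree of freedom, so none were 1 library deposited more than once. Deviations from the group means correlated weakly between same-numbered libraries of Pcf11-AARR and WT (r = 0.147, 0.173 and 0.230), which does not establish pairing. A block for the number changed no ADH call there. Standard errors are the log2 fold change over the square root of F. DESeq2 1.42.0 was an alternative. CLIP peaks, identity and motifs were handled in Python 3.11.15 with pandas 2.3.3 and Biopython 1.88, and figures drawn with matplotlib 3.10.9. The fit was tested on simulated data.

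The members and gene lists were chosen with earlier results of these data known. Named are the 6 genes, ADH7, SFA1, up to 2 of the highest and 2 of the lowest called members of each list per comparison with WT, and the closest genes by Pearson's r. SIP4 and GUT1 of the lists are named besides.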

Additional observations from a re-analysis of the deposited data

How the results depend on the processing

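The falls of ADH2 and ADH4 against WT in all 4 strains, the rises of ADH1 in ΔPcf11, Pcf11-OE1 and Pcf11-OE2, and the fall of ADH3 in ΔPcf11 kept their direction and an adjusted p under 0.05 under every alternative run: other scaling, no filter, DESeq2, 1 fit per count table, only 2 strains in the fit, a replicate block, and each library left out. Scaling by library totals alone moved the most, since it shifts the median of all features by 0.13, 0.36, 0.29 and 0.26 (log2) in ΔPcf11, Pcf11-AARR and the overexpressors Pcf11-OE1 and Pcf11-OE2 against WT and the share of calls that are higher to 64.6%, 76.2%, 70.7% and 69.4%, beside 54.5%, 52.7%, 52.9% and 52.3% with TMM. The shift is 0.23 for Pcf11-AARR against ΔPcf11, with 75.9% of calls higher beside 46.3%. Under it ADH genes called higher against WT numbered 2 for Pcf11-AARR and 3 each for both overexpressors, where TMM gave 1 each, and 0 were called lower in Pcf11-AARR against ΔPcf11, where TMM gave 2; ADH3 in Pcf11-AARR against WT had a log2 fold change of 0.067, beside -0.29 with TMM. It also shifts the median by 0.17 and 0.13 in Pcf11-OE1 and Pcf11-OE2 against ΔPcf11, with 63.9% and 61.5% of calls higher beside 51.8% and 50.3%, and gives 37.7% beside 51.4% for Pcf11-OE2 against Pcf11-AARR. DESeq2 gave 31.4% beside 16.8% for Pcf11-OE2 against Pcf11-OE1.

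Leaving out each library gave 0 to 1 called higher in Pcf11-AARR, 1 to 1 in Pcf11-OE1, 1 to 2 in Pcf11-OE2 and 1 to 1 in ΔPcf11 against WT, and 2 to 3, 3 to 3, 2 to 3 and 3 to 4 called lower in the same order. In Pcf11-AARR against ΔPcf11 it gave 1 to 2 higher and 0 to 2 lower. The log2 difference of the ADH2 to ADH1 ratio from WT ran from -5.70 to -4.71 in ΔPcf11, -4.68 to -4.32 in Pcf11-AARR, -5.99 to -5.49 in Pcf11-OE1 and -6.11 to -5.41 in Pcf11-OE2. ADH3 in Pcf11-OE2 against WT passed the threshold with RLE scaling (0.0378), DESeq2 (0.0286), 1 fit per table (0.024) and only 2 strains in the fit (0.0242).

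Same-numbered libraries were correlated in the comparisons with WT, in Pcf11-AARR against ΔPcf11 and in Pcf11-OE2 against Pcf11-OE1. Of these 18 pairs 5 correlated above 0.1, 3 of them between Pcf11-AARR and WT. Replicate 2 also did so between Pcf11-AARR and ΔPcf11 (0.190) and between Pcf11-OE2 and Pcf11-OE1 (0.393), where replicates 1 and 3 were negative. The remaining strain pairs were not checked in this way. Of the 15 libraries 5 correlated best with their own number. With the replicate number as a block, ADH genes called higher and lower against WT were 1 and 4 in ΔPcf11, 1 and 3 in Pcf11-AARR, 1 and 3 in Pcf11-OE1 and 1 and 2 in Pcf11-OE2, 0 and 0 in Pcf11-OE2 against Pcf11-OE1, and 3 and 2 in Pcf11-AARR against ΔPcf11, where ADH5 gained its call. A block with only Pcf11-AARR and WT in the fit, added after the data were seen, also gave 1 and 3. CLIP members under peaks stayed at 3 and 1 when at least 50% of the peak had to overlap. Depth limits ADH4 most, with 197 to 466 reads per library, and ADH7, with 1 to 7 reads in each altered library.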
